A study of Homo sapiens with 8 samples.

Results

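The comparison described here sets MCF10A cells that overexpress the intracellular domain of NOTCH1 against their MCF10A parent after both had been exposed to ginkgolic acid. Genes were taken when they were listed once under a single symbol in both deposited tables, which gave 44658 genes, and when they reached 5 FPKM (fragments scaled by transcript length and library size) in at least 1 of the ginkgolic acid groups, which left 10450. Each gene's value is the log2 of the FPKM in the NOTCH1 line over that in MCF10A, minus the median over the 7916 genes that reached 5 FPKM in each of the 2 groups. A positive value therefore means a higher level in the NOTCH1 line than in MCF10A, relative to the median gene. The 2 tables were normalized separately, and the median before centring was 0.40, so an absolute difference between the lines cannot be told apart from a factor between the tables. For 817 of the 10450 genes a group was listed at 0 and no ratio was formed, which left 9633 ratios.

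MCF10A is an immortalised, non-tumorigenic line of human breast epithelium. The study kept MCF10A and the NOTCH1 line for 3 days with 30 µM ginkgolic acid or with its solvent DMSO, in a horse serum medium with EGF, insulin, hydrocortisone and cholera toxin. Total RNA was sequenced from 8 samples, 2 in each of 4 groups, and 4 of the 8 belong to the comparison with ginkgolic acid. The promoter and vector that drive the intracellular domain, and whether the line is 1 clone or a pool, are given in none of the sources used here. Since the deposited tables hold 1 FPKM per gene and group, no value below has a replicate error, nothing was tested, and the depth is unknown. A gene is called higher or lower when its centred ratio is at least 2-fold (a log2 ratio of at least 1 or at most −1), which is a rule of size only.

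Notch receptors are cut when a ligand of the Jagged or Delta families binds them, and the freed intracellular domain enters the nucleus, joins the DNA-binding protein RBPJ and switches on genes such as those of the HES and HEY repressors. In stratified epithelia Notch is known for promoting the change from basal to differentiating cells. SUMO is a small protein that is attached to other proteins by a cascade of enzymes that begins with an activating enzyme (SAE1 with UBA2), and ginkgolic acid, an alkylphenol, is known to block the activating step.

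NOTCH1 itself (chromosome 9, 139388896 to 139440376, hg19, holding an annotated small RNA) was at 12.4 FPKM in the NOTCH1 line and 6.18 in MCF10A with ginkgolic acid, a centred log2 ratio of 0.61. With DMSO the order was the opposite, 5.03 and 11.4 FPKM, a log2 ratio of −1.14. The value counts reads of the full gene, endogenous or introduced, so it checks the label only in part, and the line is called NOTCH1-labelled below. CDKN2A and CDKN2B, cell cycle inhibitor genes of a locus that MCF10A is known to have lost, were listed at 0 in all 4 groups. Epithelial markers were present in both lines. Their sum over 4 genes was 853 FPKM in the NOTCH1-labelled and 497 in the MCF10A ginkgolic acid group. Of other cell types, 7 endothelial markers reached at most 2.15 FPKM with ginkgolic acid, 11 leukocyte markers at most 6.15, and CD79A was at 0 in both groups. The 8 joined fibroblast markers summed to 67.7 FPKM in the NOTCH1-labelled and 66.5 in the MCF10A group. Within that sum DCN was higher in the NOTCH1-labelled group, at 31.8 and 9.11, and FAP lower, at 24.2 and 43.2. The 8 neural markers summed to 31.3 and 23.6. The part of these other cell type markers in the results was not tested.

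Among the receptors and ligands, values were close to the median gene. NOTCH2 was at 7.004 FPKM in the NOTCH1-labelled group and 3.95 in MCF10A with ginkgolic acid, and at 6.51 and 6.42 with DMSO. The ligand gene JAG1 (chromosome 20, holding a small RNA) was at 17.5 and 21.3 FPKM with ginkgolic acid, a log2 ratio of −0.68, and at 6.86 and 13.1 with DMSO. NOTCH3 and DLL1 stayed below 1 FPKM in every group. Of 18 measured receptors, ligands and modulators 0 were at least 2-fold apart, with a median log2 ratio of 0.17. For comparison, 8.99% of all 9633 genes with a ratio reached a 2-fold excess and 9.42% a 2-fold deficit in the NOTCH1-labelled line, with a median of 0.04. The 12 measured genes of the nuclear complex also gave 0 calls. Its DNA-binding member RBPJ was at 57.6 and 36.1 FPKM, a log2 ratio of 0.28.

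Of 24 listed target genes of Notch, 12 reached 5 FPKM in a ginkgolic acid group. These were on the higher side of the median gene in the NOTCH1-labelled line. All 12 had a ratio above 0, against 52.4% of all genes with a ratio, and 5 were at least 2-fold higher. The minimum bears on this count, since a gene can pass through the group where it is high, as BHLHE41 did at 5.34 and 1.37 FPKM. Without a minimum the median log2 ratio was 0.69. HES1, the repressor most directly tied to Notch (chromosome 3, 193853934 to 193856521, hg19), was at 508 FPKM in the NOTCH1-labelled and 179 in the MCF10A ginkgolic acid group, a log2 ratio of 1.11. In DMSO its levels were 45.4 and 36.6, a log2 ratio of 0.35. HES1 was thus higher with ginkgolic acid than with DMSO in both tables, and the order of the lines was the same with either treatment. HES4 was at 14.3 and 5.02 FPKM with ginkgolic acid, a log2 ratio of 1.11, and in the other order with DMSO, at 6.78 and 18.5. BHLHE40, a repressor that several stresses also induce, was at 179 and 33.4 FPKM, against 10.5 and 14.8 with DMSO. ID3, an inhibitor of basic helix-loop-helix factors, was at 51.1 and 10.8 FPKM, against 15.04 and 18.9. For BHLHE40 and ID3 the NOTCH1-labelled ginkgolic acid group stood above the other 3 groups.

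Other Notch targets were low or nearer to the median gene. MYC was at 79.0 and 35.2 FPKM with ginkgolic acid, a log2 ratio of 0.77, and at 69.5 and 105 with DMSO. CCND1, a G1 cyclin, had a log2 ratio of 0.55, and CDKN1A, the CDK inhibitor p21, one of 0.24. HEY1, HEY2, HEYL and NRARP were below 5 FPKM in both ginkgolic acid groups and have no ratio. HEY1, at 1.22 and 2.73 FPKM, and HEY2, at 0.274 and 0.483, were lower in the NOTCH1-labelled group. HEYL, at 0.382 and 0.260, and NRARP, at 2.001 and 0.548, were higher. The list had a median log2 ratio of 0.80 with ginkgolic acid and −0.37 with DMSO, where 1 of 12 was higher and 2 were lower by that rule. In the DMSO contrast 11.8% of 9612 genes reached 2-fold on the higher side and 9.35% on the lower. The 2 contrasts share no library.

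The HES1 promoter is shown because HES1 is the best known direct target and carries a pair of RBPJ core motifs (TGGGAA, searched on both strands). It is the 250 bases before the start of the gene, from RefSeq on GRCh38.p14, with the motif in capitals.
HES1, chr3:194135898-194136147, plus strand: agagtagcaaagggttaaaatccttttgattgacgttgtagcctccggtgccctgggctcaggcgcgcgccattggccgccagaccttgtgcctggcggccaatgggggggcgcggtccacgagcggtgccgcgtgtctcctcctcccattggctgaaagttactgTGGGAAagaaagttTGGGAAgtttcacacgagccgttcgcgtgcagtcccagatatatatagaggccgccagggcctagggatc
The core was found in 3 of the 10 promoters of measured Notch targets that matched the RefSeq table (30%) and in 21.1% of all 27305 promoters of the same length. All 3 belong to the 5 matched genes at least 2-fold higher. A match is a description of the letters, and binding was not measured.

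**Figure D1:**
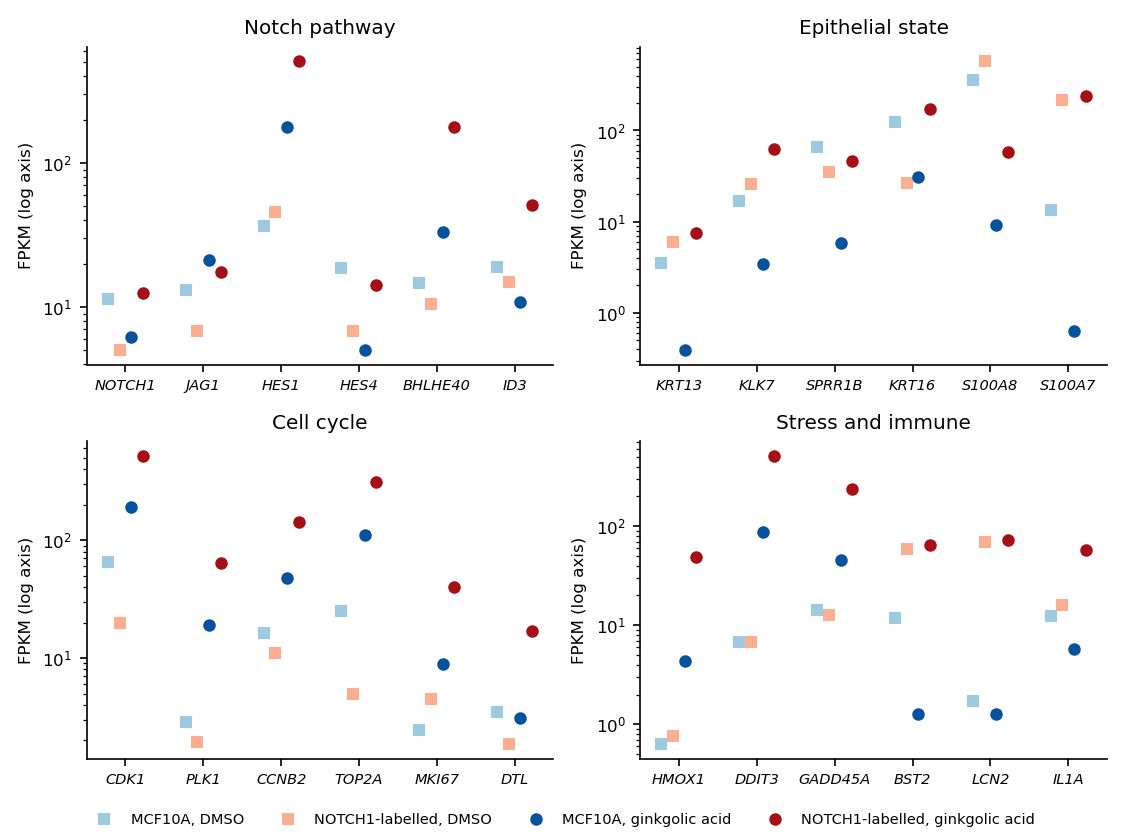
FPKM on a log axis for 24 genes in the 4 groups, 1 point per group with no replicate error. Dark red circles (NOTCH1-labelled with ginkgolic acid) lie above dark blue circles (MCF10A with ginkgolic acid) for every gene shown except JAG1, while the order of the DMSO squares differs from gene to gene. The genes were chosen with results of these data known, so their common order follows in part from the choice. Genes lower in the NOTCH1-labelled line, such as AGR2, ITGB4, GRHL2 and HRK, are not shown.

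Genes of keratinocyte differentiation separated the lines under ginkgolic acid. Of 19 measured genes 13 were at least 2-fold higher and 0 lower, with a median log2 ratio of 1.95, against −0.11 with DMSO. KRT13, a keratin of suprabasal layers, was at 7.59 FPKM in the NOTCH1-labelled and 0.391 in the MCF10A group, against 5.97 and 3.51 with DMSO. KLK7, a protease of the shedding skin surface (chromosome 19), was at 63.2 and 3.46 FPKM, a log2 ratio of 3.79, against 26.1 and 16.8 with DMSO. For KRT13 and KLK7 the MCF10A ginkgolic acid group was the lowest of the 4. KLK5 was at 28.9 and 3.15 FPKM, and the tight junction gene CLDN4 at 11.3 and 1.16.

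SPRR1B, a cornified envelope precursor (chromosome 1, 153003678 to 153005376, hg19), was at 46.3 FPKM in the NOTCH1-labelled and 5.82 in the MCF10A ginkgolic acid group, a log2 ratio of 2.59. With DMSO it was at 35.5 and 66.4, a log2 ratio of −0.86. PI3, the elastase inhibitor elafin, had the same shape, at 61.0 and 7.38 FPKM with ginkgolic acid and 40.6 and 91.5 with DMSO. KRT16, a keratin of activated epidermis, was at 170 and 30.7 with ginkgolic acid and at 26.8 and 123 with DMSO, log2 ratios of 2.07 and −2.16. These 3 genes were among the 8 with the largest positive difference between the contrasts. Involucrin (IVL), at 2.08 and 0.345 FPKM, was below the minimum. The list's size depends on the minimum, since a gene can pass through the group where it is high. The median was 0.76 over members without any minimum and 0.85 over those reaching 5 FPKM in each of the 4 groups. By these medians the list did not stand first, with G2 and mitosis genes at 0.86 without a minimum and extracellular proteases at 0.88 over genes that passed in each group.

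The SPRR1B promoter is printed as one with a pair of AP-1 motifs (TGANTCA, both strands), in capitals, in the 250 bases before the gene start (RefSeq, GRCh38.p14).
SPRR1B, chr1:153030953-153031202, plus strand: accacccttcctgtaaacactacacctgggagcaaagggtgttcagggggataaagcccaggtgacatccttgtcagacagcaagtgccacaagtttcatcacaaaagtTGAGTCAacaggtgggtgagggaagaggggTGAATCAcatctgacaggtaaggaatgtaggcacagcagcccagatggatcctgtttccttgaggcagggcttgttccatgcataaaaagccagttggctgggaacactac
The AP-1 motif was found in 5 of 15 matched promoters of this list (33.3%) and in 6.60% of all promoters, and in 5 of the 11 that belong to higher genes. In the promoters of 12 measured S100 genes it was found in 1 (8.33%), and in 0 of the 6 of higher genes.

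S100 genes, small calcium-binding proteins of which several lie beside the cornified envelope genes on chromosome 1, differed widely among themselves. S100A7 (psoriasin) was at 241 FPKM in the NOTCH1-labelled and 0.632 in the MCF10A ginkgolic acid group, a log2 ratio of 8.18, and at 214 and 13.5 with DMSO. S100A7 was thus at a similar FPKM in both NOTCH1-labelled groups and lowest in MCF10A with ginkgolic acid. S100A8 was at 58.1 and 9.09 FPKM with ginkgolic acid and at 571 and 355 with DMSO. S100A9, its partner in calprotectin, was at 235 and 24.2 against 825 and 419. Both calprotectin genes were lower with ginkgolic acid than with DMSO in each line, and the NOTCH1-labelled line was the higher one with either treatment. Of 12 measured S100 genes 6 were at least 2-fold higher and 0 lower, and the median log2 ratio was 0.83, or 0.52 without a minimum.

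Markers of epithelial lineage did not move as 1 block. Of 21 measured basal markers 4 were at least 2-fold higher and 1 lower. The basal keratin genes KRT5 and KRT17 have no ratio, because at least 1 table lists them only in rows with several symbols. KRT14, a basal keratin, was at 23.97 and 5.68 FPKM, a log2 ratio of 1.68, whereas TP63, a basal transcription factor, was at 14.2 and 8.53, a log2 ratio of 0.34, and the integrin gene ITGB4 was lower, at 73.7 and 114 FPKM. Of 11 luminal markers 5 were higher and 1 lower. The epithelial factors EHF, at 29.2 and 2.36 FPKM, and ELF3, at 396 and 72.2, were higher, and AGR2, a protein disulphide isomerase family member, was lower, at 1.49 and 12.5. EHF was at 129 and 105 FPKM with DMSO, above both ginkgolic acid values. GRHL2 (chromosome 8), another epithelial factor, was lower in the NOTCH1-labelled line, at 1.79 and 8.18 FPKM, with 8.18 and 6.88 with DMSO.

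Mesenchymal genes gave 4 of 16 at least 2-fold higher and 0 lower, with a median of 0.25. ZEB1, a repressor of epithelial genes, was at 8.12 and 0.780 FPKM, and SPARC, a matrix protein, at 27.5 and 4.24. The epithelial cadherin CDH1 was at 63.9 and 39.2 FPKM, a log2 ratio of 0.31, and vimentin (VIM) at 142 and 106, a log2 ratio of 0.03. ZEB1 was therefore higher without a 2-fold difference in CDH1 or VIM. Among extracellular proteases and their inhibitors 4 of 11 were higher and 0 lower. The urokinase gene PLAU was at 160 and 24.6 FPKM. The protease list had a median of 0.89 that was 0.16 without a minimum. Targets of YAP and TGF-beta gave 3 of 15 higher and 0 lower, with a median of 0.88.

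Cell cycle genes of G2 and mitosis were higher as a group in the NOTCH1-labelled line with ginkgolic acid. The ratio was above 0 for 70 of 71 measured genes, all but CDC25B, whereas 52.4% of all genes with a ratio were above 0. At least 2-fold higher were 29 of the 71, and 0 were lower, with a median log2 ratio of 0.90. With DMSO the median was −0.50, and 17 of 43 were at least 2-fold lower and 0 higher. CDK1, the kinase of mitotic entry, was at 521 FPKM in the NOTCH1-labelled and 191 in the MCF10A ginkgolic acid group, and at 19.8 and 64.9 with DMSO. PLK1, a kinase of spindle assembly (chromosome 16), was at 64.4 and 19.2 FPKM, a log2 ratio of 1.35, and at 1.93 and 2.88 with DMSO. For CDK1 and PLK1 the NOTCH1-labelled line had both the highest of the 4 values, with ginkgolic acid, and the lowest, with DMSO.

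BIRC5 (survivin, of the chromosome passenger complex) was at 78.7 and 14.9 FPKM with ginkgolic acid, a log2 ratio of 2.01, and at 3.88 and 4.31 with DMSO. MKI67, the proliferation marker Ki-67, was at 40.1 and 8.83 FPKM, and NUF2, of the kinetochore, at 144 and 34.9. The cyclin gene CCNB2 was at 141 and 47.3 FPKM, a log2 ratio of 1.18, and at 10.99 and 16.2 with DMSO. CDC25B had a log2 ratio of −0.36. Centring on each chromosome's own median, an alternative chosen after the data were seen, left 17 of the 71 at least 2-fold higher and 0 lower, with a median of 0.81. Several G2 and mitosis genes lay just over the 2-fold limit, with CDK1 at 1.05.

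Promoters of PLK1 and CCNB2 are shown because they hold both elements of the known cell cycle promoter, the CHR (TTTGAA) and upstream CCAAT boxes, both searched on either strand and written in capitals where found in the 250 bases before the start (RefSeq, GRCh38.p14).
PLK1, chr16:23678639-23678888, plus strand: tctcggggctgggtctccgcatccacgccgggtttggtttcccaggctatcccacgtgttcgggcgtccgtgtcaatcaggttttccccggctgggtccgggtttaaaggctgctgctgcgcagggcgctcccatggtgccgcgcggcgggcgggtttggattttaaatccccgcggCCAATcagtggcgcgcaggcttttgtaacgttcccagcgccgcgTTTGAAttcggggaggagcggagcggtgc
CCNB2, chr15:59104896-59105145, plus strand: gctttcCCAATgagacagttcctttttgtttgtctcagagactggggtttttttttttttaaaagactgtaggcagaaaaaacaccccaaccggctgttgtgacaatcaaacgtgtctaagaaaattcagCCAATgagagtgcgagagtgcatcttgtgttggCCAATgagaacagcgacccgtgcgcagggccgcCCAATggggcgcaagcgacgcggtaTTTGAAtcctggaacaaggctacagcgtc
Both motifs together were found in 24 of 61 matched promoters of measured G2 and mitosis genes (39.3%) and in 4.85% of all promoters. The CHR alone was found in 28 of 61 (45.9%, with 13.6% of all promoters), and in 8 of the 24 matched promoters of genes at least 2-fold higher. With the 50 bases after the start included, 39 of 61 held a CHR. The CCAAT box was found in 41 of 61 (67.2%, with 33.0% of all promoters), and in 17 of the 24. The motif counts describe which letters the promoters hold, and no difference between higher and other genes was tested.

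S phase genes were also above the median gene, with 38 of 45 ratios above 0, 9 at least 2-fold higher and 1 lower. DTL, a ubiquitin ligase subunit of replication control that holds a small RNA, was at 17.0 and 3.10 FPKM, and the nuclease gene EXO1 at 36.8 and 8.67. GINS3, of the replicative helicase, which also holds a small RNA, was the lower one, at 5.25 and 18.7. Replication-dependent histones had a median log2 ratio of 0.06, with 3 of 46 higher and 5 lower, against −1.04 with DMSO, where 23 of 45 were at least 2-fold lower. Among G1 regulators CDKN1C, the CDK inhibitor p57, was the 1 of 22 at least 2-fold higher, at 25.2 and 5.91 FPKM.

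**Figure D2:**
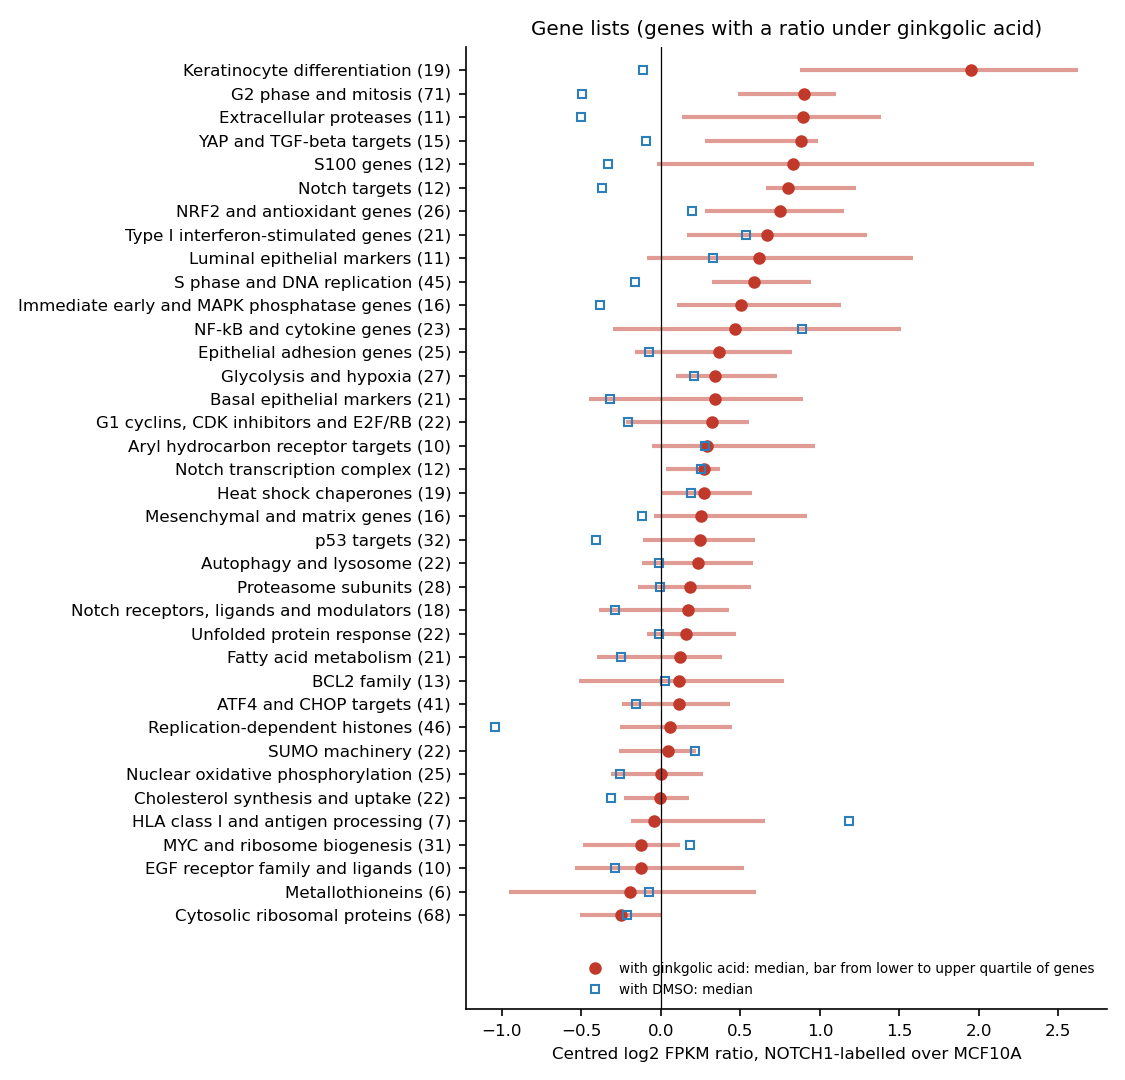
Centred log2 FPKM ratio by gene list, NOTCH1-labelled line over MCF10A, for the 37 lists with at least 5 genes that have a ratio. Circles are medians and bars run from the lower to the upper quartile of the genes with ginkgolic acid, and open squares are medians with DMSO. Keratinocyte differentiation, at 1.95, lies farthest to the right, and G2 and mitosis genes stand at 0.90 with ginkgolic acid and −0.50 with DMSO.

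Stress genes differed by list. NRF2 and antioxidant genes gave 11 of 26 at least 2-fold higher and 0 lower, with a median of 0.75 against 0.20 with DMSO. HMOX1, haem oxygenase (chromosome 22), was at 48.7 FPKM in the NOTCH1-labelled and 4.35 in the MCF10A ginkgolic acid group, a log2 ratio of 3.09, and at 0.766 and 0.629 with DMSO. HMOX1 was thus low and alike in both DMSO groups and 8.49-fold apart, after centring, with ginkgolic acid. The aldo-keto reductase AKR1C1 was at 53.1 and 7.60 FPKM, and at 19.01 and 5.17 with DMSO, so the order of the lines was the same with both. TXNRD1, thioredoxin reductase, was at 364 and 97.2 FPKM.

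The median of ATF4 and CHOP targets was 0.11, with 5 of 41 higher and 1 lower. DDIT3, which encodes CHOP and holds a small RNA, was at 515 and 86.5 FPKM with ginkgolic acid and 6.82 and 6.85 with DMSO. Sestrin 2 (SESN2) was at 24.9 and 5.41 FPKM, CHAC1, a glutathione-degrading enzyme, at 6.77 and 1.84, and the asparagine synthetase gene ASNS on chromosome 7 was the lower one, at 74.97 and 121. ATF4 itself was at 532 and 410 FPKM, a log2 ratio of −0.02. The CARE motif (TTGCATCA, both strands) was in 3 of 33 matched promoters of the list (9.09%) and in 0.820% of all promoters, in 1 of the 4 of higher genes, and in 6 of 33 with the 50 bases after the start included. Of p53 targets 5 of 32 were higher and 0 lower, led by GADD45A, a growth arrest gene, at 238.1 and 45.2 FPKM against 12.6 and 14.2 with DMSO. In the unfolded protein response 1 of 22, EDEM1, was at least 2-fold higher.

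BCL2 family genes moved in both directions, with 3 of 13 higher and 1 lower. PMAIP1, which encodes the pro-death protein NOXA, was at 101 and 22.0 FPKM, and MCL1, the survival protein that NOXA binds, at 343 and 124. HRK, another pro-death gene, was lower, at 2.71 and 15.4 FPKM. Heat shock chaperone genes gave 1 of 19 higher, CRYAB at 22.9 and 3.21 FPKM, and 2 lower, HSPA8 and TCP1, which both hold small RNAs. Among 10 aryl hydrocarbon receptor targets CYP1A1, at 9.54 and 0.687 FPKM, was higher and its relative CYP1B1, at 9.51 and 35.3, was lower.

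Interferon-stimulated genes gave 7 of 21 at least 2-fold higher and 0 lower, with a median of 0.67 that was 0.24 without a minimum and 0.15 over genes reaching 5 FPKM in each of the 4 groups. BST2, the antiviral protein tetherin (chromosome 19, 17513748 to 17516457, hg19), was at 64.4 FPKM in the NOTCH1-labelled and 1.28 in the MCF10A ginkgolic acid group, a log2 ratio of 5.25, and at 59.6 and 11.8 with DMSO. OASL was at 7.23 and 0.997 FPKM, and OAS1, which senses double-stranded RNA, at 18.7 and 4.33. BST2 and S100A7 shared 1 feature, a like level in both NOTCH1-labelled groups and a lower value with ginkgolic acid in MCF10A.

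The BST2 promoter is printed as that of the interferon gene with the largest ratio. It holds 2 overlapping copies of the interferon response core (GAAA followed after any 2 bases by another GAAA, both strands), in capitals, in the 250 bases before the start (RefSeq, GRCh38.p14).
BST2, chr19:17405631-17405880, minus strand: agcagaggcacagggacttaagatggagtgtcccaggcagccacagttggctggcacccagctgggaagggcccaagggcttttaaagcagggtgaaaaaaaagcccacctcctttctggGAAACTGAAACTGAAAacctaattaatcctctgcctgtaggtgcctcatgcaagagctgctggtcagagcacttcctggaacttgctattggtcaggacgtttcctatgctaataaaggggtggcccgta
The core was in 10 of 19 matched promoters of measured interferon genes (52.6%) and in 3.07% of all promoters, and in 5 of the 6 of higher genes.

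NF-kB and cytokine genes gave 8 of 23 at least 2-fold higher and 0 lower, with a median of 0.47 that was 0.14 over genes reaching 5 FPKM in each of the 4 groups. With DMSO 11 of 22 were higher, with a median of 0.88. LCN2, the iron-binding lipocalin 2, was at 72.5 and 1.26 FPKM with ginkgolic acid and at 69.2 and 1.73 with DMSO, and TNFAIP2 at 73.7 and 8.24 against 197 and 7.76. LCN2 and TNFAIP2 separated the lines with both treatments. IL1A, an epithelial alarm cytokine, did so mainly with ginkgolic acid, at 57.9 and 5.71 FPKM against 15.96 and 12.5. The NF-kB inhibitor gene NFKBIA was at 730 and 704 FPKM, a log2 ratio of −0.34. HLA class I and antigen processing genes, of which 7 were measured, had a median of −0.04 with ginkgolic acid and of 1.18 with DMSO.

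The measured part of the SUMO machinery was near the median gene, with 1 of 22 higher, 0 lower and a median of 0.05. Of 29 listed genes 23 were joined between the tables. SUMO2 and SUMO3 were not, because each is listed only in a row with several symbols, so they have no ratio. The activating enzyme genes SAE1, at 64.5 and 57.1 FPKM, and UBA2, at 65.8 and 71.8, had log2 ratios of −0.22 and −0.52, and both lie on chromosome 19.

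Growth signalling genes differed singly. DUSP5, a nuclear phosphatase of ERK, was at 9.49 and 1.54 FPKM, and DUSP4, its relative on chromosome 8, was lower, at 4.26 and 8.25. FGFR1, also on chromosome 8, was at 2.98 and 7.66 FPKM, a log2 ratio of −1.76. EGFR (chromosome 7) was at 21.4 and 22.2, a log2 ratio of −0.45. Immediate early genes and MAPK phosphatases gave 5 of 16 higher and 1 lower, with a median of 0.50 that was 0.13 without a minimum. Glycolysis and hypoxia genes gave 5 of 27 higher and 1 lower, among them the glucose transporter SLC2A1 at 49.3 and 15.9 FPKM.

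Housekeeping lists lay near or under the median gene. Cholesterol genes had a median of 0.00 with 1 of 22 higher, nuclear oxidative phosphorylation genes 0.00 with 3 of 25 lower, and proteasome subunits 0.18 with 0 of 28 in either direction. The 3 lower oxidative phosphorylation genes were NDUFA4 and CYCS on chromosome 7 and UQCRB on chromosome 8. Centred on each chromosome's own median, 0 of the 25 were lower. Cytosolic ribosomal protein genes had a median of −0.25 with 51 of 68 below 0 and 6 at least 2-fold lower, and MYC-dependent ribosome biogenesis genes −0.13 with 3 of 31 lower. RPS20, a known host of a small nucleolar RNA and the lowest of the 6, was at 3721 and 19078 FPKM. ACTB, often used as a reference gene, was at 1099 and 369 FPKM, a log2 ratio of 1.18, and so was no neutral scale for this comparison.

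Across all genes the contrast with ginkgolic acid was only weakly correlated with the one in DMSO. A 2-fold excess in the NOTCH1-labelled line was seen for 866 genes and a 2-fold deficit for 907. Without centring the split was 1858 higher and 471 lower, so the balance between the directions rests on the centring. Among protein-coding genes, 595 (7.79%) were higher and 448 (5.86%) lower. Across the 8538 genes with a ratio in both contrasts, Spearman's rho was 0.08 and Pearson's r 0.09, a correlation across genes, which are not independent replicates. Of all 8538 genes, 842 were higher and 671 lower with DMSO. Over the 9612 genes with a DMSO ratio these shares were 11.8% and 9.35%. Of 568 genes higher with ginkgolic acid that had a DMSO ratio, 126 were also higher with DMSO and 68 were lower. The 126 are 22.2% of the 568 and 14.96% of the 842 higher with DMSO. Of 679 genes lower with ginkgolic acid, 109 (16.1%) were lower and 218 (32.1%) higher with DMSO. Apart with ginkgolic acid and not with DMSO were 726 genes (8.5%).

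**Figure D3:**
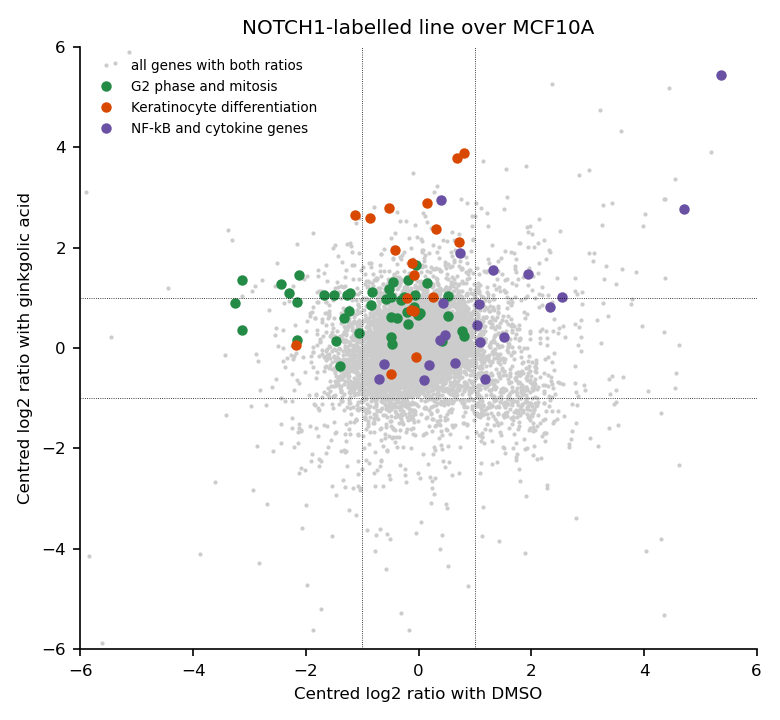
Centred log2 ratio of the NOTCH1-labelled line over MCF10A with ginkgolic acid (vertical) against DMSO (horizontal) for 8538 genes, 9 of which lie outside the axes, with 3 gene lists in colour and dotted lines at 2-fold. Genes of G2 and mitosis lie mostly above 0 on the vertical axis and left of 0 on the horizontal, keratinocyte differentiation genes high and near 0 across, and NF-kB genes mostly to the right.

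Position in the genome separated the lines as well. Genes were grouped by chromosome after their values had been seen, so the grouping is a description. Over protein-coding genes that reached 5 FPKM in each of the 4 groups, the median log2 ratio with ginkgolic acid was −0.46 on chromosome 7 (282 genes), −0.46 on chromosome 20 (145 genes), −0.37 on chromosome 19 (262 genes), −0.35 on chromosome 8 (243 genes) and −0.31 on chromosome 11 (365 genes). The other 18 chromosomes had medians between −0.07 and 0.17. On these 5 chromosomes together 77.9% of 1297 genes were below 0, against 42.3% of 4735 elsewhere. As an FPKM ratio the chromosome 7 median is 0.727.

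The same 5 chromosomes were the lowest with DMSO, at −0.43, −0.59, −0.81, −0.31 and −0.37 in that order, with the others between −0.10 and 0.25. That contrast uses other libraries. Within a line, ginkgolic acid over DMSO gave chromosome medians between −0.27 and 0.24 in MCF10A and between −0.17 and 0.15 in the NOTCH1-labelled line. Chromosome 19 had −0.27 and 0.15 there, so its position moved with the treatment too, while chromosome 7 had 0.07 and −0.02. Calls followed the same division. On the 5 chromosomes 191 of 1620 protein-coding genes with a ratio were at least 2-fold lower (11.8%) and 68 higher (4.20%), and elsewhere 257 of 6017 were lower (4.27%) and 527 higher (8.76%).

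**Figure D4:**
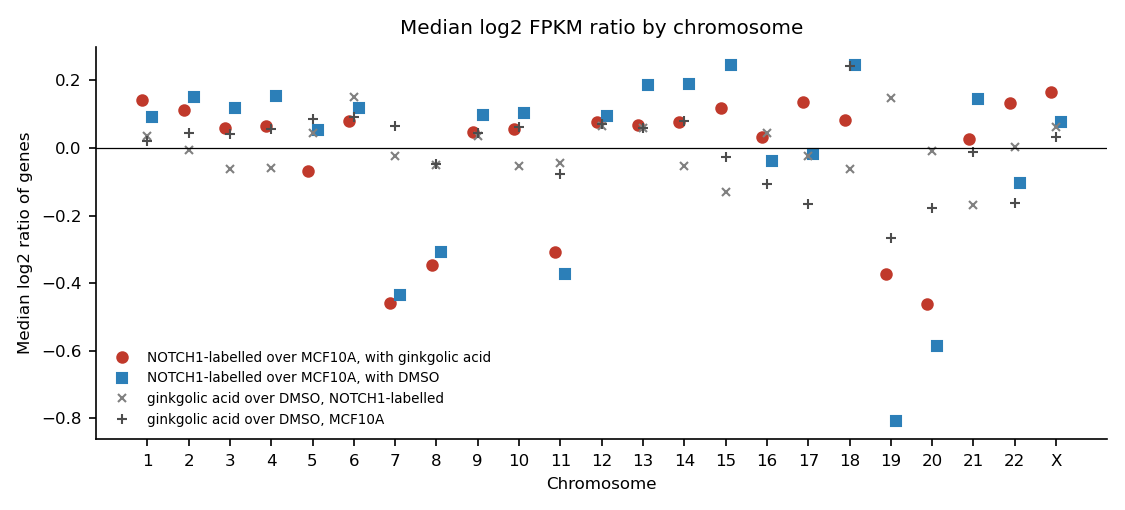
Median log2 FPKM ratio of protein-coding genes by chromosome. Circles and squares compare the NOTCH1-labelled line with MCF10A with ginkgolic acid and with DMSO, and crosses compare ginkgolic acid with DMSO within each line. Chromosomes 7, 8, 11, 19 and 20 lie between −0.46 and −0.31 with ginkgolic acid, below all others.

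Along these chromosomes the shift was spread over their length, though its size varied. In bins of about 20 neighbouring genes, 14 of 14 bins on chromosome 7 had a median below 0 in both contrasts, as had 12 of 12 on chromosome 8, 13 of 13 on chromosome 19 and 7 of 7 on chromosome 20. On chromosome 11 it was 18 of 18 with ginkgolic acid and 16 of 18 with DMSO. With ginkgolic acid the bin medians ran from −0.73 to −0.30 on chromosome 7, −0.55 to −0.22 on 19 and −0.66 to −0.23 on 20. On chromosomes 8 and 11 some came close to 0, with ranges from −0.67 to −0.05 and from −0.55 to −0.01. On the chromosomes other than these and chromosome 5, 14 of 212 bins were below 0 in both. Chromosome 5 changed along its length. It was cut before its last 6 bins after the bin medians were seen, so the difference between the parts follows in part from the cut. These 6 bins, with gene starts from 137620954 to 180663909 (hg19), were all below 0 in both contrasts. Their 120 genes had medians of −0.32 with ginkgolic acid and −0.33 with DMSO. The 207 genes before them had medians of 0.07 and 0.19. DNA copy number was not analysed here, and the source of the shift was not tested.

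**Figure D5:**
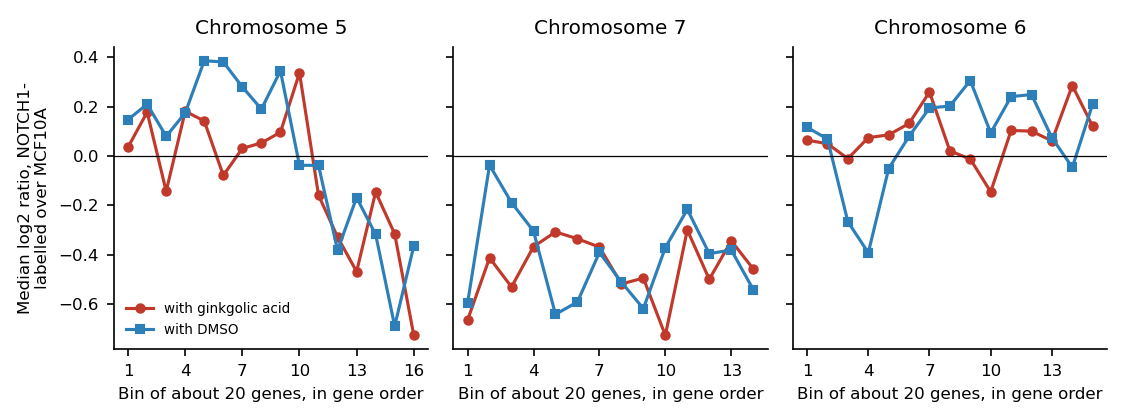
Median log2 ratio of the NOTCH1-labelled line over MCF10A in bins of about 20 neighbouring genes, in order along chromosomes 5, 7 and 6. On chromosome 5 both lines of points are below 0 from bin 11 on, and the DMSO line is at −0.04 in bin 10. Chromosome 7 is below 0 throughout, and chromosome 6 is shown as one without a shifted median.

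Beyond the lists, the protein-coding genes with the highest ratios among those reaching 5 FPKM in each ginkgolic acid group and holding no small RNA were led by CRABP2, a retinoic acid carrier, at 89.4 and 5.13 FPKM, a log2 ratio of 3.73. KANSL1L followed at 51.4 and 5.01, and AQP3, a glycerol channel of epidermis, was at 107 and 13.1. Both CRABP2 and AQP3 had the same order with DMSO, at 37.8 and 17.7 FPKM and at 114 and 58.6. At the other end POLR2J, a subunit of RNA polymerase II (chromosome 7), was at 18.2 FPKM in the NOTCH1-labelled and 9547 in the MCF10A group, and AKIRIN2, a nuclear import factor for proteasomes (chromosome 6), at 20.1 and 10315. Both were far apart with DMSO as well, at 11.3 and 4259 FPKM and at 4.53 and 270. Both exceeded ACTB, at 369 FPKM, in the MCF10A ginkgolic acid group. SLC9A3R1, a scaffold of microvilli, reversed between contrasts, at 6.87 and 85.7 FPKM with ginkgolic acid and 174 and 10.9 with DMSO.

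Some genes were near absent in 1 line. Only genes typed by symbol as protein-coding and without a small RNA were counted here. With ginkgolic acid 9 were at 10 FPKM or more in the NOTCH1-labelled line and below 1 in MCF10A. Among them were S100A7, TGM4, a transglutaminase, at 24.5 and 0.925 FPKM, and the cell surface glycoprotein gene CEACAM6, at 13.9 and 0.567. LPAR3, a lysophosphatidic acid receptor, was at 11.01 and 0.611. In the other direction there were 6 genes, among them ZNF275, at 0.637 and 50.7 FPKM, and the neurotrophin receptor gene NTRK3, at 0.794 and 10.3. The counts include rows with clone names, AC005702.1 and AC107871.1 among the 9 and AC008397.1 and AL121753.1 among the 6. AC005702.1 (chromosome 17, 58119722 to 58119803, hg19) was at 417 and 0 FPKM. Whether the clone-named rows are protein-coding genes was not checked. TGM4 and LPAR3 were also higher in the NOTCH1-labelled line with DMSO, at 14.2 and 1.21 and at 4.06 and 0.106 FPKM, whereas NTRK3 had the opposite order, at 6.13 and 1.70.

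Some genes that hold small RNAs had large ratios, and their FPKM may count reads of the small RNA. POFUT1, the enzyme that adds fucose to Notch receptors, was listed at 6365 FPKM in the NOTCH1-labelled and 11.4 in the MCF10A ginkgolic acid group, with 16.8 and 28.8 in DMSO. DGCR8, of the microRNA processing complex, was at 2.27 and 123. TP63 and CDH1, named above, also hold small RNAs. Of the 10450 genes 1691 hold an annotated small RNA, and 1814 did not match the annotation. Leaving out both sets, with new centring, gave 547 genes higher and 490 lower.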

How the data were processed

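Total RNA libraries (ScriptSeq Complete Gold kit) came from the samples described above. The submitters' processing notes name GRCh37 (hg19), Cuffdiff 2.1.1 and Cufflinks 2.1.1, with TopHat2 2.0.8b and Bowtie2 2.1.0. Annotation, settings and how a group's samples were pooled are stated in no source used here. The authors deposited 2 tables, 1 per line, with 1 FPKM value per gene and group, per the file headers, so depth and replicate spread are unknown. The tables were normalized separately. Rows with no symbol, several symbols, a repeated symbol or a position off chromosomes 1 to 22, X and M were left out. Ratios used no pseudocount and were computed as described above. No test was run. The 43 gene lists, the members and the rule for named genes were chosen with earlier results of these data known.

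That rule took the 10 highest and 10 lowest protein-coding genes with at least 5 FPKM in both ginkgolic acid groups and no small RNA, up to 8 members per list beyond 2-fold, genes at 10 FPKM or more in one line and below 1 in the other, up to 8 genes with the largest difference between the contrasts in each direction, 5 genes that hold small RNAs, and a list of Notch, SUMO and lineage genes. Some genes that the rule takes are left out here. ATF4, ACTB, CDC25B, EGFR, NFKBIA, CDK1, CCNB2, IVL, CDKN2A and CDKN2B were named after their values were seen, as were the 5 printed promoters and the features said to be shared by single genes. Gene types and small RNAs came from GENCODE 29. Promoters came from the RefSeq table (GRCh38.p14), cut to the 250 bases before the start. All 6 motifs searched are reported. Computations used Python 3.11.15, numpy 2.4.6 and pandas 2.3.3. The centring and calls were run on simulated data with less spread than the ratios here. That run checked the computation and gives no rate of false calls for these data.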

Additional observations from a re-analysis of the deposited data

How the results depend on the processing

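The 11 lists with a median of at least 0.5 kept a median above 0 under all alternatives run, while the counts of genes moved. Staying above 0 is a weaker limit than the 0.5 by which these lists were picked. Some came near the median of all genes, 0.04 in the main setting. The lowest medians were 0.13 for immediate early and MAPK phosphatase genes, 0.15 for interferon-stimulated genes and 0.16 for extracellular proteases. Genes at least 2-fold higher were 2158 with a minimum of 1 FPKM, 3069 without a minimum, 1858 without centring, 563 among protein-coding genes with their own centring, 547 without genes that hold a small RNA, and 212 at 4-fold. Genes at least 2-fold lower were 3950, 8040, 471, 475, 490 and 234 in that order, and 538 with a minimum of 10 FPKM. The alternative without genes that hold a small RNA, here and below, also left out genes with no match in the annotation. Genes apart with ginkgolic acid and not with DMSO were 1915 with a minimum of 1 FPKM, 458 with 10 FPKM, 3840 without a minimum, 1263 without centring, 480 without genes that hold a small RNA and 166 at 4-fold. Over genes reaching 5 FPKM in each of the 4 groups, an alternative chosen after seeing the data, these counts were 301, 400 and 477. Of 39 lists with 3 or more genes, the number with a median of at least 0.5 in size was 10 without a minimum, 9 with a pseudocount of 1 FPKM, 30 without centring, 10 with upper quartile scaling, 10 among protein-coding genes, 12 without genes that hold a small RNA, 13 with means, 10 centred on each chromosome (chosen after seeing the data) and 8 over genes reaching 5 FPKM in each of the 4 groups. The limit of 0.5 was set after the medians were seen. G2 and mitosis genes ranged from 0.75 to 1.30, Notch targets from 0.69 to 1.20, and NRF2 genes from 0.68 to 1.14. The low medians of chromosomes 7, 8, 11, 19 and 20 lay 0.36 to 0.59 below those of the other chromosomes on the log2 scale under the alternatives run for them. Without centring every ratio is higher by 0.40, and the median of ribosomal protein genes is then 0.14 in place of −0.25. No paired analysis was possible because the tables hold 1 value per gene and group, and for the same reason no replicate could be left out. Depth limits could not be computed.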

Other observations

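Among rows with at least 5 FPKM in all 4 groups, 76, chosen after their values were seen, had nearly the same profile over the groups as RIC3, within a Euclidean distance of 0.5 between centred log2 values. Their median FPKM was 79.4 in MCF10A and 54.3 in the NOTCH1-labelled line with ginkgolic acid, and 25.6 and 83.2 with DMSO, which gives a median log2 ratio of −1.13 with ginkgolic acid and 1.84 with DMSO. Of these rows 21 are protein-coding genes and 41 carry names that did not match the annotation. FSIP2, one of the 8 genes with the largest negative difference between the contrasts, was at 170 and 83.2 FPKM with ginkgolic acid and at 37.8 and 169.5 with DMSO. TMEM45A, another of the 8, was at 256 and 128 FPKM and at 67.2 and 255. In both genes the MCF10A ginkgolic acid and NOTCH1-labelled DMSO groups were the high ones, at nearly the same FPKM.

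The mean FPKM of 372 olfactory receptor genes, which epithelial cells are known not to use, was also lowest in MCF10A with DMSO. It was 0.560 in MCF10A and 0.368 in the NOTCH1-labelled line with ginkgolic acid, and 0.244 and 0.589 with DMSO. Genes listed above 0 numbered 35355, 31348, 29104 and 34419 in the same order. The part that this low level has in the ratios of low genes was not tested.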
